A study of Homo sapiens with 45 samples.

Results

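The mRNAs of 8 enzymes of serine synthesis and folate one-carbon metabolism were followed by mRNA sequencing in the human cell line HAP1: PHGDH, PSAT1, PSPH, SHMT1, MTHFD1, SHMT2, MTHFD2 and MTHFD1L. They were taken by gene symbol from a table of 60676 genes, in which all 8 had a row, and all 8 were among the 11078 genes that passed the filter on low counts. Halofuginone raised 5 of them, PHGDH, PSAT1, PSPH, SHMT2 and MTHFD2, by 1.73-fold to 2.79-fold in RNF25 KO and AAVS1 cells, where 1.73% and 1.54% of all tested genes passed the same test. None of the 8 passed after halofuginone in GCN2 KO cells (1.24% of all tested genes). Azacytidine raised 3 of them in RNF25 KO cells (0.469% of all tested genes) and 3 in eS31 K113R cells (0.515%), and SHMT1, MTHFD1 and MTHFD1L passed in none of the 24 comparisons. These counts come from a model without the replicate number. With it as a block, PSPH passed too after azacytidine in both lines.

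Serine is made from the glycolytic intermediate 3-phosphoglycerate. PHGDH oxidises it, PSAT1 adds an amino group taken from glutamate, and PSPH, the phosphatase, releases serine. SHMT1 in the cytosol and SHMT2 in mitochondria then split serine into glycine and a one-carbon unit carried by tetrahydrofolate, MTHFD2 and MTHFD1L oxidise and release that unit as formate in mitochondria, and MTHFD1 loads formate back onto folate in the cytosol for the synthesis of purines and thymidylate. Several genes of this pathway are known targets of ATF4, the transcription factor of the integrated stress response, which cells start when a kinase such as GCN2 phosphorylates the initiation factor eIF2.

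HAP1 is a near-haploid derivative of the leukaemia line KBM-7. The edited lines were eS31 K113R, RNF25 KO, ZNF598 KO, GCN2 KO (gene EIF2AK4) and RNF25 GCN2 DKO, and the line they were set against was AAVS1, named after a genomic site often edited as a neutral control. ZNF598 and RNF25 attach ubiquitin to ribosomal and ribosome-bound proteins when translation stalls, and eS31 is a protein of the small ribosomal subunit that is made as a fusion with ubiquitin. Cells of all 6 genotypes were treated for 4 h with 5 uM azacytidine (azaC), a nucleoside drug that enters RNA and DNA in place of cytidine, or left untreated. AAVS1, RNF25 KO and GCN2 KO cells were also treated for 4 h with 25 nM halofuginone (HF), which blocks the charging of tRNA with proline and thereby activates GCN2. Each of the 15 groups held 3 libraries. The labels do not say whether a line is 1 clone or how the replicate cultures were separated, so the p-values measure the spread between these libraries. The titles of untreated eS31 K113R replicates 2 and 3 name eS32_K223R, while their column names and the series design name eS31 K113R, and they were placed by the column names.

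The libraries held 1135498 to 2478875 counts, with a median of 1541554 counts. The 8 genes together took 1024 to 3847 counts of a library, and single values ran from 32 counts (SHMT1) to 1362 counts (PSAT1). The targeted transcript EIF2AK4 stood at 21.8 ± 2.39 CPM in untreated GCN2 KO and 39.3 ± 3.71 CPM in the untreated libraries labelled RNF25 GCN2 DKO, against 58.4 ± 10.4 CPM in untreated RNF25 KO and 43.7 ± 1.63 CPM in untreated AAVS1 (SD, n = 3 each). The libraries labelled DKO thus lay below RNF25 KO, close to AAVS1 and above GCN2 KO. An mRNA level does not show whether the protein is made, so loss of GCN2 protein in the DKO was not tested. ZNF598 stood at 36.9 ± 5.93 CPM in untreated ZNF598 KO, against 62.1 ± 10.6 CPM in untreated AAVS1. RNF25 had 0 to 7 counts per library and checks nothing, and a point mutation in eS31 does not show in a count. Of 10 haematopoietic markers 0 passed the filter on low counts and 9 had a median of 0 counts, among them PTPRC and CD34, although the parent line is a leukaemia line, whereas 5 of 6 mesenchymal markers passed, led by VIM with a median of 645 counts. RNF25 KO azaC replicate 2 stood apart by a mitochondrial share of 3.14% against a median of 7.08%. Calls of the 8 genes for azaC, and for azaC against HF, in RNF25 KO are given with and without it. The differences of azaC responses, the order of groups, the correlations and the list genes are given with it only. Levels are CPM, the count as a share of the library's total rescaled by edgeR's TMM factors (trimmed mean of M values). Changes are log2 fold changes ± SE from the quasi-likelihood test of edgeR with 3 libraries a group, adjusted by the Benjamini-Hochberg method over all 11078 genes, and the threshold was an adjusted p of 0.05. Overlap between libraries was read for the 8 genes only, without a share over all tested genes. With 3 libraries a group, groups can separate without a true difference, so a lack of overlap is only a description.

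The sequences before the transcription starts were examined because several of these genes moved together. RefSeq windows of the 250 bases before a start (GRCh38.p14) were matched for PHGDH, PSAT1, SHMT1, MTHFD1, MTHFD2 and MTHFD1L (9 windows), and PSPH and SHMT2 were not matched. Both strands were searched for TGATGNAA, the core of the element bound by ATF4 with its C/EBP partners, and for CCAAT, the box bound by NF-Y, each without regard to matches of the other. CCAAT was found in all 6 genes, in 8 of 9 windows, and in 32% of 35116 windows of the same length over all genes. Several of the 9 windows belong to MTHFD1L, and those of them with CCAAT overlap and hold the same site. The 32% is a share of single windows and not of genes. TGATGNAA was found in 1 of the 6, MTHFD1L, in 2 of its overlapping windows, and in 3.14% of all windows. The PSAT1 window (plus strand, chr9:78296875-78297124) is shown whole because PSAT1 had the largest fitted rise of the 8 and the window holds no annotated exon, with its 3 CCAAT boxes in capitals. For PHGDH (plus strand, chr1:119711851-119711880), MTHFD2 (plus strand, chr2:74198529-74198558) and MTHFD1L (plus strand, chr6:150866346-150866375) the 30 bases around 1 match each are shown, with the match in capitals, a CCAAT box in PHGDH and MTHFD2 and TGATGCAA in MTHFD1L.
PSAT1: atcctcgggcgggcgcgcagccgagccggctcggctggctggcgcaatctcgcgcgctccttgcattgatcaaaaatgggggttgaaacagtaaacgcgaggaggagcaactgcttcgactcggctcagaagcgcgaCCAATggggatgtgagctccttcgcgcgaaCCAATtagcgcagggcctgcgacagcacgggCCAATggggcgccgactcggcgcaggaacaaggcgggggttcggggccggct
PHGDH: gagtatttccgtCCAATcaaaaggagactg
MTHFD2: atgcggcagggaCCAATgggtggcggaggg
MTHFD1L: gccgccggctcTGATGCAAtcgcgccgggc
The 2 boxes of PSAT1 nearest to its start began 83 and 52 bases before it, that of PHGDH 71 bases and the one shown for MTHFD2 74 bases before theirs. SHMT1, which passed in no comparison below, had boxes 76 bases and, on the other strand, 25 bases before its start. That of MTHFD1, which did not pass either, began 216 bases before its start. Thus a box at such a distance is not particular to the genes that moved. The match of MTHFD1L began 129 or 90 bases before 2 of its annotated starts. MTHFD1L, the only one of the 6 with the ATF4 core in these windows, did not pass in any comparison below. A match is a string of letters and not a binding site, and the lack of one says only that the letters are not in this window.

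Per kilobase of annotated exon, PSAT1 was the most abundant of the 8 mRNAs and MTHFD2 the next in all 15 groups, and SHMT1 was the least abundant in all 15. In untreated AAVS1 the mean level was 108 CPM per kb for PSAT1 (ENSG00000135069, chromosome 9, 78297143 to 78330093 of GRCh38) and 38.8 CPM per kb for MTHFD2 (ENSG00000065911, chromosome 2, 74198562 to 74217565). The levels of PSPH (ENSG00000146733, chromosome 7, 56011051 to 56051604), SHMT2 (ENSG00000182199, chromosome 12, 57229327 to 57234935), MTHFD1 (ENSG00000100714, chromosome 14, 64388031 to 64463457), PHGDH (ENSG00000092621, chromosome 1, 119648411 to 119744226) and MTHFD1L (ENSG00000120254, chromosome 6, 150865549 to 151101887) lay between 17.5 and 14.3 CPM per kb, and SHMT1 (ENSG00000176974, chromosome 17, 18327860 to 18363563) stood at 7.86 CPM per kb. Exon length here is the union over all annotated transcripts, 2188 bases for PSAT1 and 9217 bases for PHGDH, so the order of close values depends on which exons are in use. Together the 8 mRNAs made up 0.202% ± 0.00613 of the counts in HF-treated RNF25 KO and 0.193% ± 0.00823 in HF-treated AAVS1, with 0.185% ± 0.0116 in azaC-treated eS31 K113R, against 0.0938% ± 0.00937 in untreated AAVS1 (SD, n = 3 each).

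The same 4 groups held the highest mean levels of PHGDH, PSAT1, PSPH, SHMT2 and MTHFD2. These were HF-treated AAVS1, HF-treated RNF25 KO and azaC-treated eS31 K113R in the first 3 places, in varying order, and azaC-treated RNF25 KO in the next. For PSAT1, PSPH and MTHFD2 every library of the group in the third place lay above every library of the group in the next. The span between the highest and the lowest group mean was 3.84-fold for PSAT1, 3.47-fold for PSPH, 3.06-fold for SHMT2, 2.77-fold for MTHFD2 and 2.25-fold for PHGDH. It was 1.91-fold for MTHFD1L, 1.59-fold for SHMT1 and 1.35-fold for MTHFD1. Most neighbours in the order of 15 groups overlapped. Of the 14 neighbouring pairs, 2 did not overlap for PSPH and MTHFD2, 1 for PHGDH and PSAT1, and 0 for the other 4 genes. Such pairs were not counted over all tested genes, so it is not known whether this separation is unusual.

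**Figure D1:**
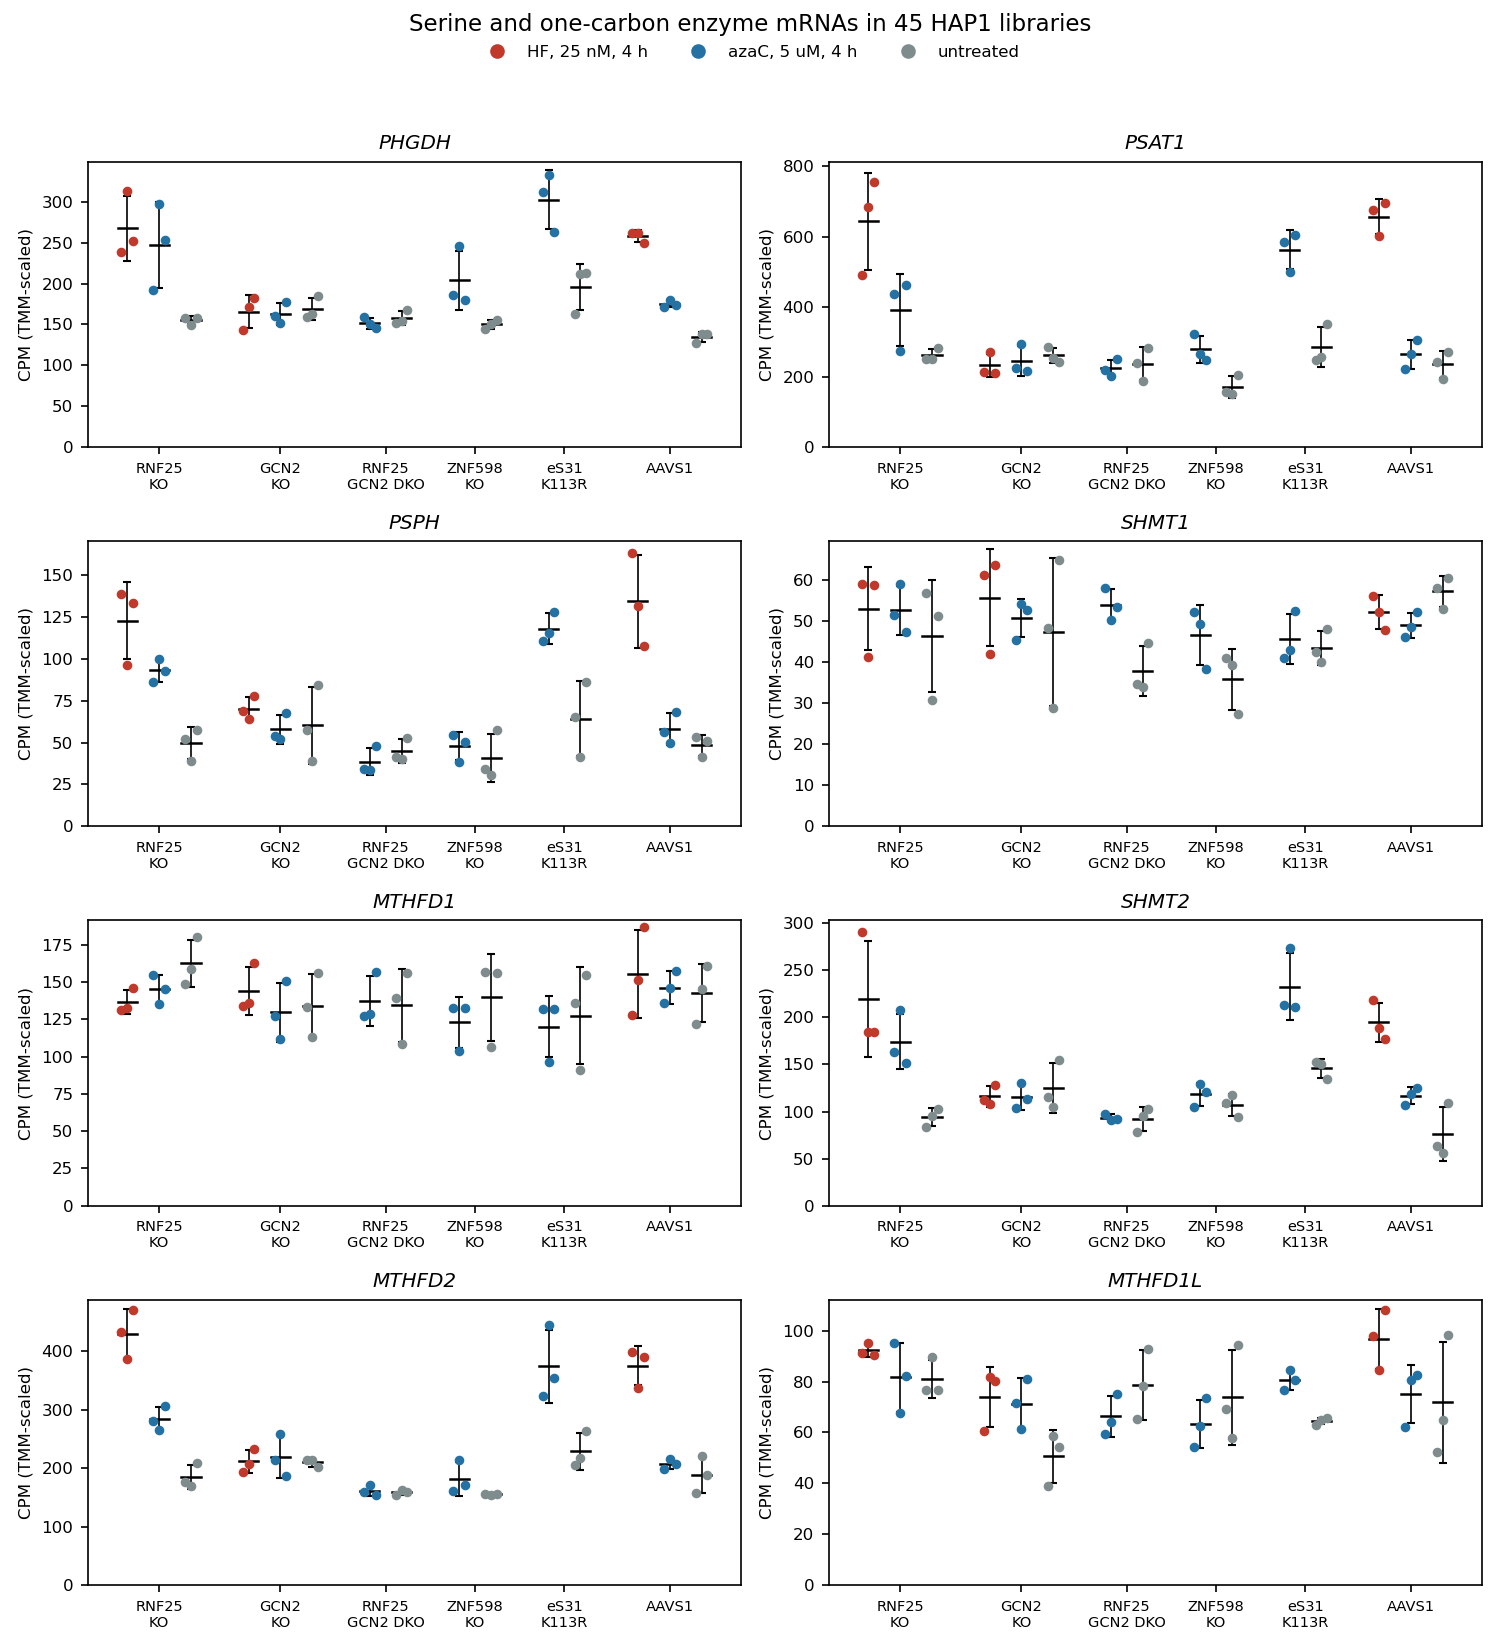
Level of each mRNA in every library (dots, CPM on TMM-scaled library sizes) with the mean and SD of 3 libraries (bars), by genotype and treatment. HF-treated RNF25 KO, azaC-treated eS31 K113R and HF-treated AAVS1 stand highest for PHGDH, PSAT1, PSPH, SHMT2 and MTHFD2, while SHMT1, MTHFD1 and MTHFD1L overlap across most groups.

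In AAVS1 cells, HF raised all 3 enzymes of serine synthesis and 2 of the 3 mitochondrial folate enzymes. PSAT1 had 675, 600.1 and 695 CPM in the 3 HF-treated libraries, against 241, 194 and 270.5 CPM in the untreated ones, a log2 fold change of 1.48 ± 0.19 (adjusted p = 6.27e-07). PHGDH, the entry enzyme, had 262, 262 and 249 CPM with HF, against 127, 138 and 138 CPM untreated (0.94 ± 0.15, adjusted p = 5.4e-05). PSPH had 163, 132 and 108 CPM, against 53.0, 41.1 and 51.0 CPM (1.47 ± 0.24, adjusted p = 6.49e-05). For all 3 the treated and untreated libraries did not overlap, and PSPH spread most among the treated. In mitochondria, SHMT2 had 218, 188 and 178 CPM in HF-treated and 63.3, 56.0 and 109 CPM in untreated AAVS1 (1.35 ± 0.20, adjusted p = 7.39e-06). MTHFD2, the dehydrogenase and cyclohydrolase, had 399, 338 and 390.3 CPM with HF, against 158, 221 and 188 CPM untreated (0.99 ± 0.15, adjusted p = 1.62e-05). Untreated AAVS1 replicate 3 stood well above the other 2 untreated libraries for SHMT2, yet below every treated one. In bulk RNA a rise in all cells and a larger rise in some of them cannot be told apart.

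MTHFD1L, which releases formate, had 97.8, 84.4 and 108 CPM in HF-treated and 52.2, 64.9 and 98.2 CPM in untreated AAVS1, and the groups overlapped (0.43 ± 0.20, adjusted p = 0.405). The cytosolic enzymes had log2 fold changes of −0.14 ± 0.22 (SHMT1) and 0.12 ± 0.19 (MTHFD1) and overlapped as well. Thus 5 of 8 rose and 0 fell, where 1.54% of all tested genes passed in either direction, and the median log2 fold change was 0.96 over the 8 and 0.0114 over all tested genes. All 5 calls held in every alternative analysis, with each single library left out too. With the replicate number as a block, 381 genes of all tested passed in this comparison, against 171 without it, and the same 5 enzymes did.

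In RNF25 KO cells, HF raised the same 5 mRNAs. PSAT1 had 489, 685 and 756 CPM in HF-treated libraries, against 249.6, 252 and 282 CPM in untreated ones (1.30 ± 0.19, adjusted p = 1.13e-05). MTHFD2 had 432, 386 and 471 CPM with HF, against 176, 169.9 and 209 CPM untreated (1.22 ± 0.15, adjusted p = 2.6e-07). SHMT2 had 291, 184 and 185 CPM, against 84.0, 95.1 and 103 CPM (1.22 ± 0.19, adjusted p = 4.37e-05). No library overlapped between the groups for any of these, and SHMT2 in HF replicate 1 stood far above the other 2 treated libraries. PSPH had 139, 96.4 and 133 CPM in HF-treated and 52.0, 38.9 and 57.6 CPM in untreated RNF25 KO (1.31 ± 0.24), and PHGDH had 238, 313 and 252 CPM in HF-treated and 158, 149 and 157 CPM in untreated RNF25 KO (0.79 ± 0.15). MTHFD1, SHMT1 and MTHFD1L had log2 fold changes of −0.25, 0.20 and 0.19 and did not pass. The share of all tested genes that passed was 1.73%, the median over the 8 was 1.00, and all 5 calls held in every alternative analysis.

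The HF responses of RNF25 KO and AAVS1 were compared directly. None of the 8 differed in edgeR, DESeq2 or limma-voom, and 0% of all tested genes passed. At an unadjusted p under 0.05 were 0 of 8, and 292 of all 11078 tested genes. The difference of the log2 fold changes, RNF25 KO minus AAVS1, was −0.18 for PSAT1 with a 95% interval of −0.73 to 0.36, 0.23 for MTHFD2 (−0.20 to 0.66) and −0.15 for PHGDH (−0.59 to 0.29). The intervals are those of single genes without adjustment, and they do not show that the lines respond alike.

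In GCN2 KO cells none of the 8 mRNAs passed after HF. PSAT1 had 215, 272 and 211 CPM in HF-treated GCN2 KO, against 284, 255 and 244 CPM in untreated GCN2 KO (−0.17 ± 0.19, adjusted p = 0.879). PHGDH had 144, 171 and 182 CPM, against 159.5, 163 and 185 CPM (−0.03 ± 0.15), SHMT2 112, 108 and 128 CPM, against 116, 105 and 155 CPM (−0.11 ± 0.20), and MTHFD2 194, 207 and 234 CPM, against 214, 213 and 202 CPM (0.01 ± 0.15). All 4 overlapped between treated and untreated. PSPH had 69.0, 64.1 and 77.6 CPM, against 57.8, 38.9 and 84.3 CPM (0.21 ± 0.24), with untreated replicate 3 above all treated libraries. The count was 0 of 8 in edgeR, DESeq2 and limma-voom, with 1 of 8 at an unadjusted p under 0.05, MTHFD1L (0.56 ± 0.21, adjusted p = 0.26). Of all 11078 tested genes 1087 had an unadjusted p under 0.05. HF did change other genes in this line, where 1.24% of all tested genes passed.

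The difference between the HF responses of GCN2 KO and AAVS1 was tested as such, and 4 of 8 mRNAs had a lower log2 fold change with HF in GCN2 KO than in AAVS1, where 0.334% of all tested genes passed. The log2 difference, GCN2 KO minus AAVS1, was −1.65 ± 0.27 for PSAT1 (adjusted p = 0.000218), −1.46 ± 0.28 for SHMT2 (adjusted p = 0.00195), −0.97 ± 0.21 for MTHFD2 (adjusted p = 0.014) and −0.96 ± 0.22 for PHGDH (adjusted p = 0.0189). PSPH differed by −1.26 ± 0.34 and did not pass (adjusted p = 0.116), although it passed without GCN2 KO untreated replicate 2 (−1.49, adjusted p = 0.0383). SHMT1, MTHFD1 and MTHFD1L differed by 0.36, −0.02 and 0.13 and did not pass. The median over the 8 was −0.97, against −0.00557 over all tested genes. PSAT1 kept its call in every alternative and SHMT2 in all but the fit to the 4 groups alone (adjusted p = 0.0915). PHGDH lost it without AAVS1 untreated replicate 1 (0.0695), GCN2 KO untreated replicate 3 (0.0825), AAVS1 HF replicate 1 (0.0541) and GCN2 KO HF replicate 1 (0.112), and MTHFD2 without AAVS1 untreated replicate 1 (0.0809), AAVS1 HF replicate 1 (0.059) and GCN2 KO HF replicate 1 (0.0658), where the adjusted p is in parentheses. Without the filter on low counts PHGDH (0.311) and MTHFD2 (0.242) lost their calls too. In the fit to the 4 groups alone they also lost them (0.123 for PHGDH and 0.139 for MTHFD2).

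**Figure D2:**
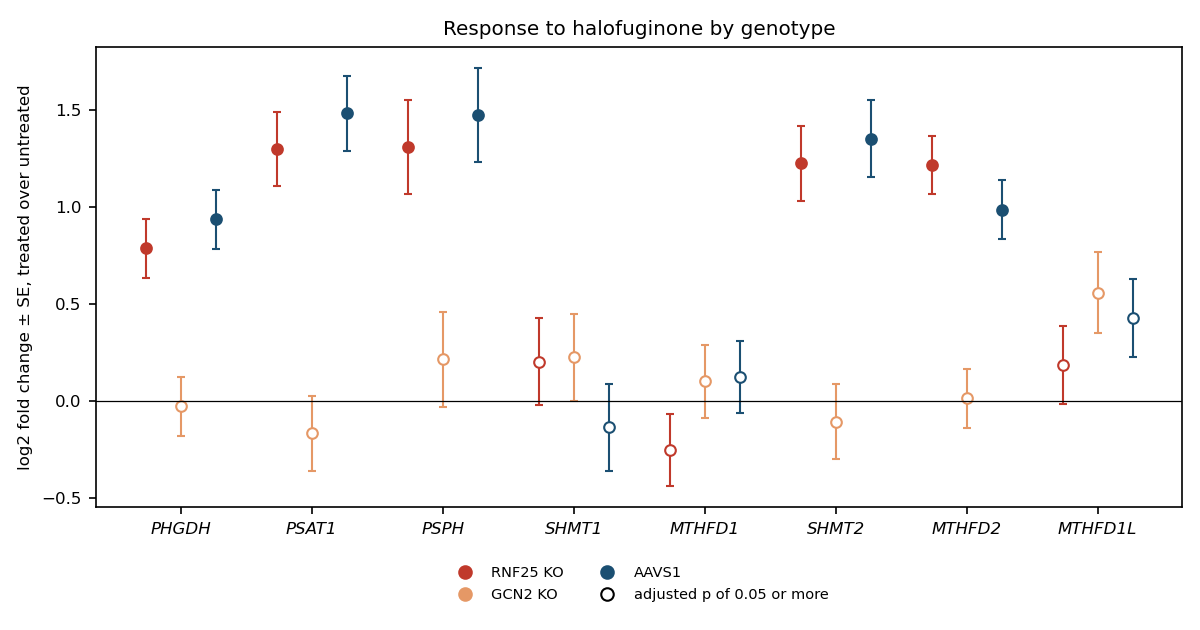
Log2 fold change with HF over untreated for each gene in RNF25 KO, GCN2 KO and AAVS1, with the SE derived from the test's F (bars) and filled dots where the adjusted p was under 0.05. PHGDH, PSAT1, PSPH, SHMT2 and MTHFD2 are filled and positive in RNF25 KO and AAVS1, and in GCN2 KO all 8 dots are open.

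Azacytidine raised 3 of the 8 mRNAs in RNF25 KO cells, where 0.469% of all tested genes passed. SHMT2 had 164, 207 and 151 CPM in azaC-treated libraries, against 84.0, 95.1 and 103 CPM in untreated ones (0.89 ± 0.19, adjusted p = 0.0121). PHGDH had 192, 297 and 253 CPM, against 158, 149 and 157 CPM (0.68 ± 0.15, adjusted p = 0.016). MTHFD2 had 281, 266 and 306 CPM, against 176, 169.9 and 209 CPM (0.62 ± 0.15, adjusted p = 0.0395). All 3 separated the groups without overlap, and azaC replicate 2, the library with the low mitochondrial share, was the highest for PHGDH and SHMT2 and the lowest for MTHFD2. PSPH had 86.2, 100.1 and 92.7 CPM with azaC, against 52.0, 38.9 and 57.6 CPM untreated, with no overlap, and did not pass (0.91 ± 0.24, adjusted p = 0.0873). PSAT1 had 437, 274 and 463 CPM, against 249.6, 252 and 282 CPM (0.58 ± 0.19, adjusted p = 0.248), and here azaC replicate 2 lay within the untreated range. With that library and AAVS1 untreated replicate 2 left out, PSAT1 passed (0.79, adjusted p = 0.0457).

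These calls in RNF25 KO turned on single libraries. Without azaC replicate 2, PHGDH had a log2 fold change of 0.52 (adjusted p = 0.351), SHMT2 0.74 (0.23) and MTHFD2 0.66 (0.0705). Each of the 3 calls was also lost without untreated replicates 1 and 2, with adjusted p between 0.0651 and 0.279. PHGDH was further lost without untreated replicate 3 (0.0714), and MTHFD2 without azaC replicates 1 and 3 (0.0597 and 0.106). In the fit to the compared groups alone all 3 calls were lost (0.476 for PHGDH, 0.163 for SHMT2 and 0.485 for MTHFD2). Without the filter on low counts PHGDH (0.12) and MTHFD2 (0.211) were lost too. The direction stayed positive throughout.

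In eS31 K113R cells azaC raised PSAT1, MTHFD2 and PHGDH, where 0.515% of all tested genes passed. PSAT1 had 584, 499.7 and 603 CPM in azaC-treated libraries, against 247, 257 and 351 CPM in untreated ones (0.98 ± 0.19, adjusted p = 0.00221). MTHFD2 had 324, 445 and 354 CPM, against 205, 218 and 265 CPM (0.71 ± 0.15, adjusted p = 0.00703), and PHGDH had 312, 333 and 263 CPM, against 163, 211 and 213 CPM (0.63 ± 0.15, adjusted p = 0.0309). None of these groups overlapped. SHMT2 had 213, 274 and 211 CPM, against 153, 151 and 134 CPM, also without overlap, and did not pass (0.68 ± 0.19, adjusted p = 0.131). PSPH had 111, 115 and 128 CPM, against 65.3, 41.2 and 86.2 CPM, without overlap (0.89 ± 0.24, adjusted p = 0.0896). The replicate numbers paired the libraries of this comparison by the rule given below, and the main fit does not use them. With the replicate number as a block, a fit in which 88 genes of all tested passed, against 57 without it, PSPH passed (0.92, adjusted p = 0.0032), as it did in limma-voom (0.96, adjusted p = 0.0303) and without untreated replicate 3 (1.16, adjusted p = 0.0289). MTHFD1L had 76.6, 84.4 and 80.7 CPM, against 63.0, 64.8 and 65.6 CPM, and did not pass (0.32 ± 0.20, adjusted p = 1). All 3 calls were lost with untreated replicate 1 as the only untreated library, with log2 fold changes of 1.19 (PSAT1), 0.87 (MTHFD2) and 0.89 (PHGDH) and adjusted p of 0.0617, 0.0991 and 0.0919. PSAT1 lost its call without eS31 K113R untreated replicate 1 (0.055), MTHFD2 without eS31 K113R untreated replicate 1 (0.113), eS31 K113R untreated replicate 2 (0.0692) and eS31 K113R azaC replicate 2 (0.189), and PHGDH without eS31 K113R untreated replicate 1 (0.427), eS31 K113R untreated replicate 2 (0.0645), eS31 K113R untreated replicate 3 (0.051), eS31 K113R azaC replicate 1 (0.138) and eS31 K113R azaC replicate 2 (0.284). Without the filter on low counts MTHFD2 (0.169) and PHGDH (0.598) were lost too. In the fit to the compared groups alone they were also lost (0.175 for MTHFD2 and 0.333 for PHGDH).

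In ZNF598 KO, GCN2 KO, RNF25 GCN2 DKO and AAVS1 cells none of the 8 mRNAs passed after azaC, in edgeR, DESeq2 or limma-voom. The shares of all tested genes that passed were 0.117% in ZNF598 KO, 0% in GCN2 KO, 0% in the DKO and 0.117% in AAVS1. In that order 331, 404, 290 and 535 of all 11078 tested genes had an unadjusted p under 0.05. Of the 8, it was 2, 1, 1 and 2. In AAVS1 these were SHMT2, with 107, 118 and 125 CPM in azaC-treated and 63.3, 56.0 and 109 CPM in untreated libraries (0.62 ± 0.20, adjusted p = 0.744), and PHGDH, with 172, 179.9 and 174 CPM, against 127, 138 and 138 CPM (0.38 ± 0.15, adjusted p = 0.99). PHGDH did not overlap between the groups, and SHMT2 overlapped through untreated replicate 3 alone. Without that library SHMT2 passed (0.98, adjusted p = 0.0256). In ZNF598 KO they were PSAT1, with 323, 266 and 248 CPM in azaC-treated and 157, 151 and 206 CPM in untreated libraries (0.70 ± 0.19, adjusted p = 0.363), and PHGDH (0.44 ± 0.15). In GCN2 KO and the DKO the log2 fold changes of PHGDH, PSAT1, PSPH, SHMT2 and MTHFD2 lay between −0.21 and 0.07. The genes at an unadjusted p under 0.05 there were MTHFD1L in GCN2 KO (0.50 ± 0.21) and SHMT1 in the DKO (0.52 ± 0.23). The median over the 8 was 0.60 in RNF25 KO, 0.65 in eS31 K113R, 0.22 in ZNF598 KO, −0.05 in GCN2 KO, −0.02 in the DKO and 0.15 in AAVS1, against values of −0.0129 to 0.00631 over all tested genes.

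**Figure D3:**
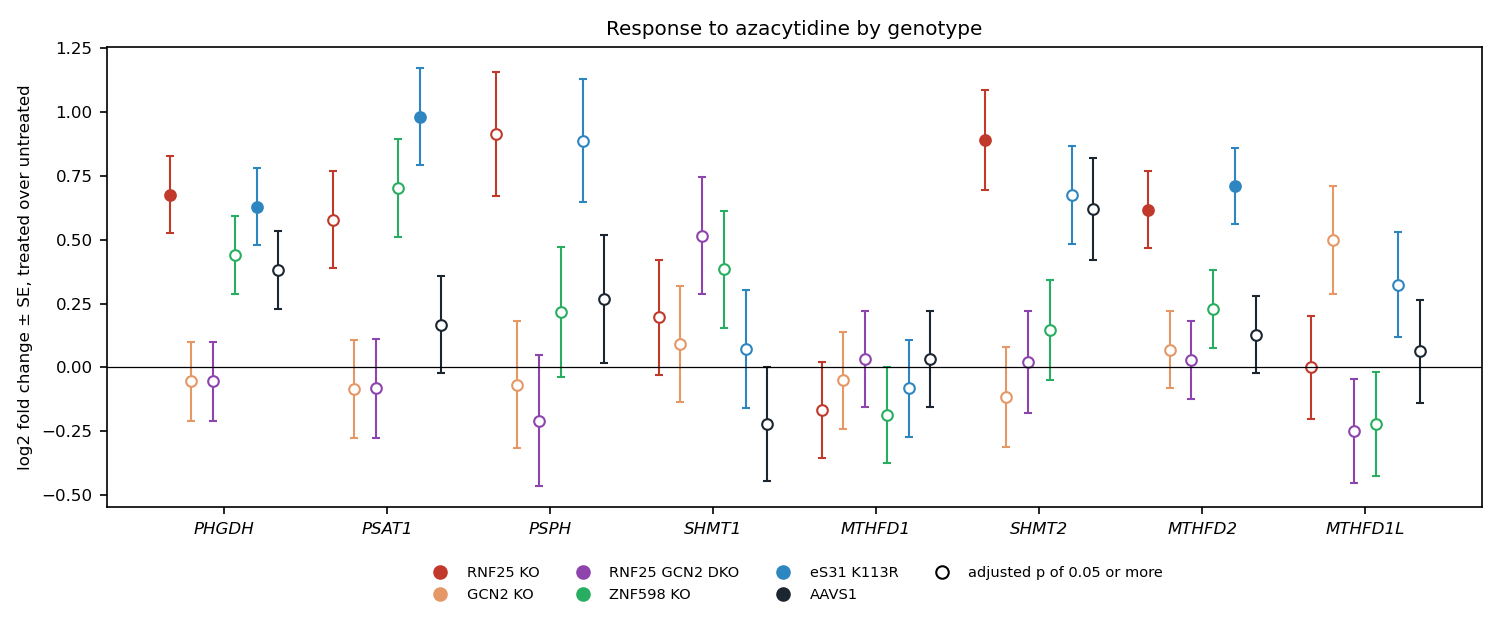
Log2 fold change with azaC over untreated for each gene in the 6 genotypes, with the SE derived from the test's F (bars) and filled dots where the adjusted p was under 0.05. Filled dots occur in RNF25 KO (PHGDH, SHMT2, MTHFD2) and eS31 K113R (PHGDH, PSAT1, MTHFD2), and the 5 responsive genes stay between −0.21 and 0.07 in GCN2 KO and RNF25 GCN2 DKO.

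A difference between genotypes in the azaC response was not detected for any of the 8. The count was 0 of 8 in edgeR, DESeq2 and limma-voom for RNF25 KO minus AAVS1 (0% of all tested genes passed, 1 of 8 at an unadjusted p under 0.05), ZNF598 KO minus AAVS1 (0%, 0 of 8), eS31 K113R minus AAVS1 (0.00903%, 2 of 8), GCN2 KO minus AAVS1 (0.00903%, 1 of 8) and RNF25 GCN2 DKO minus RNF25 KO (0.117%, 5 of 8). In that order 305, 341, 412, 280 and 610 of all 11078 tested genes had an unadjusted p under 0.05. In RNF25 GCN2 DKO minus RNF25 KO, whose DKO libraries did not have the lower EIF2AK4 level of GCN2 KO, the log2 differences were −1.12 ± 0.35 for PSPH, −0.87 ± 0.28 for SHMT2, −0.73 ± 0.22 for PHGDH, −0.66 ± 0.27 for PSAT1 and −0.59 ± 0.21 for MTHFD2, and the smallest adjusted p was that of PHGDH (0.471). For eS31 K113R minus AAVS1 the difference was 0.81 for PSAT1 with a 95% interval of 0.26 to 1.36 and 0.58 for MTHFD2 (0.15 to 1.02). The 95% intervals are those of single genes without adjustment. The calls in RNF25 KO and eS31 K113R and their lack in AAVS1 are thus not shown to be a difference between the lines.

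Within a genotype, the treated groups were also set against each other. In AAVS1, 4 of 8 mRNAs were lower with azaC than with HF, where 0.993% of all tested genes passed. PSAT1 had 222, 265 and 306 CPM with azaC, against 675, 600.1 and 695 CPM with HF (−1.31 ± 0.19, adjusted p = 2.01e-05). PSPH had 56.3, 49.6 and 68.5 CPM, against 163, 132 and 108 CPM (−1.21 ± 0.24, adjusted p = 0.00298), and MTHFD2 had 199, 215 and 207 CPM, against 399, 338 and 390.3 CPM (−0.86 ± 0.15, adjusted p = 0.000406). None of them overlapped between the drugs, and these 3 calls held in every alternative. SHMT2 was lower, at −0.73 ± 0.19 (adjusted p = 0.0453), a call that was lost with any 1 of the 6 libraries left out (adjusted p between 0.0506 and 0.27). The SHMT2 call was also lost without the filter on low counts (0.107) and in the fit to the compared groups alone (0.0525). PHGDH, at −0.56, did not pass (adjusted p = 0.0567). It passed in DESeq2 (adjusted p = 0.0232), in limma-voom (0.0461), with AAVS1 untreated replicate 2 and RNF25 KO azaC replicate 2 left out (0.0371) and with the replicate number as a block (−0.56, adjusted p = 0.0122), a fit in which 252 genes of all tested passed, against 110 without it. In RNF25 KO, MTHFD2 alone of the 8 was lower with azaC, where 0.731% of all tested genes passed, with 281, 266 and 306 CPM, against 432, 386 and 471 CPM with HF (−0.60 ± 0.15, adjusted p = 0.0373). Of all tested genes 81 passed there, with 22 when RNF25 KO azaC replicate 2 and AAVS1 untreated replicate 2 were left out and 2 in the fit to the compared groups alone. The call of MTHFD2 was lost without RNF25 KO azaC replicate 1 (0.0521), RNF25 KO azaC replicate 2 (0.297), RNF25 KO HF replicate 1 (0.101), RNF25 KO HF replicate 2 (0.0873) and RNF25 KO HF replicate 3 (0.1). It was also lost without the filter on low counts (0.2) and in the fit to the compared groups alone (0.377). PSAT1 in RNF25 KO differed by −0.72 ± 0.19 without overlap and did not pass (adjusted p = 0.0516), and passed without azaC replicate 1, azaC replicate 3 or HF replicate 1 (adjusted p = 0.0383, 0.032 and 0.0434). In GCN2 KO the count was 0 of 8 in all 3 tools, with 1.07% of all tested genes past the threshold. At an unadjusted p under 0.05 were 0 of 8 there, and 1233 of all 11078 tested genes. The comparisons are of 1 dose and 1 time of each drug, which were not matched for effect.

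Among untreated cells, eS31 K113R was the line in which members passed against AAVS1, with PHGDH and SHMT2 higher, where 2.87% of all tested genes passed. SHMT2 had 153, 151 and 134 CPM in eS31 K113R, against 63.3, 56.0 and 109 CPM in AAVS1 (0.94 ± 0.20, adjusted p = 0.00215). PHGDH had 163, 211 and 213 CPM, against 127, 138 and 138 CPM (0.54 ± 0.15, adjusted p = 0.0387). Both separated the lines without overlap. With eS31 K113R replicate 1 alone, the one whose title and column name both read eS31 K113R, SHMT2 had 1.00 (adjusted p = 0.0591) and PHGDH 0.28 (0.743). PHGDH also lost its call without AAVS1 untreated replicate 1 (0.144), AAVS1 untreated replicate 2 (0.0857), AAVS1 untreated replicate 3 (0.0715), eS31 K113R untreated replicate 2 (0.184) and eS31 K113R untreated replicate 3 (0.184). Without the filter on low counts PHGDH was lost too (0.364). In the fit to the compared groups alone neither passed (0.516 for PHGDH and 0.209 for SHMT2).

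The other untreated lines had 0 of 8 past the threshold against AAVS1 in edgeR. The shares of all tested genes that passed were 1.62% for RNF25 KO, 0.93% for ZNF598 KO, 1.05% for GCN2 KO and 1.42% for the DKO, and 0, 3, 3 and 1 of the 8 had an unadjusted p under 0.05. In the same order 1076, 989, 1061 and 1017 of all 11078 tested genes had an unadjusted p under 0.05. DESeq2 and limma-voom also gave 0 except for SHMT2 in GCN2 KO, which passed in DESeq2 (0.74, adjusted p = 0.035). SHMT2 had 116, 105 and 155 CPM in untreated GCN2 KO and 109, 117 and 94.7 CPM in ZNF598 KO, against 63.3, 56.0 and 109 CPM in AAVS1, and both lines overlapped AAVS1 through AAVS1 replicate 3. The log2 fold changes were 0.72 ± 0.20 (adjusted p = 0.0663) in GCN2 KO, with the replicate number as a block 0.72, adjusted p = 0.0318, and 0.49 ± 0.20 (adjusted p = 0.391) in ZNF598 KO. Without AAVS1 replicate 3 both passed (1.07, adjusted p = 0.00251 in GCN2 KO and 0.85, adjusted p = 0.025 in ZNF598 KO). SHMT1 had 40.9, 39.4 and 27.4 CPM in ZNF598 KO and 34.6, 33.9 and 44.8 CPM in the DKO, against 58.1, 53.0 and 60.6 CPM in AAVS1. Both lay below AAVS1 in every library, and neither passed (−0.68 ± 0.23, adjusted p = 0.211, and −0.60 ± 0.23, adjusted p = 0.282). With the replicate number as a block, 273 genes of all tested passed for RNF25 KO (179 without it), 199 for ZNF598 KO (103), 206 for GCN2 KO (116) and 245 for the DKO (157). All comparisons with AAVS1 share its 3 untreated libraries.

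SHMT1, MTHFD1 and MTHFD1L passed in 0 of 24 comparisons. Their log2 fold changes ran over −0.68 to 0.61 for SHMT1, −0.38 to 0.20 for MTHFD1 and −0.52 to 0.56 for MTHFD1L, whereas those of the other 5 reached −1.65 and 1.48, both in PSAT1. MTHFD1 was the steadiest, with group means between 120.2 ± 20.6 CPM in azaC-treated eS31 K113R and 163 ± 16.0 CPM in untreated RNF25 KO (SD, n = 3 each). MTHFD1L ran highest in HF-treated AAVS1 (96.8 ± 11.9 CPM) and lowest in untreated GCN2 KO (50.6 ± 10.3 CPM), and SHMT1 highest in untreated AAVS1 (57.3 ± 3.86 CPM) and lowest in untreated ZNF598 KO (35.9 ± 7.44 CPM). The 95% interval of MTHFD1L after HF in AAVS1 (0.02 to 0.84) and GCN2 KO (0.13 to 0.99) lay above 0 before adjustment, and neither passed after adjustment. The SE of the log2 fold change with HF in AAVS1 was 0.22 for SHMT1 (median of 72 counts per library) and 0.20 for MTHFD1L (122 counts). It was 0.24 for PSPH (93 counts), the largest of the 8, and PSPH passed in 3 of 24 comparisons.

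Across the 15 group means of log2 CPM, the 5 responsive mRNAs varied together. The 10 correlations among PHGDH, PSAT1, PSPH, SHMT2 and MTHFD2 ran from 0.874 to 0.979 (Pearson's r), highest for PSPH with MTHFD2 and then for PHGDH with SHMT2 (0.965). The 18 correlations that involve SHMT1, MTHFD1 or MTHFD1L ran from −0.23 to 0.622. These are descriptions over 15 groups that share cell line, treatments and libraries, and carry no test. The 5 were set apart by their calls after HF, in groups that are among these 15. High correlations among them thus follow in part from that choice. Among all tested genes the 3 most like PHGDH were SHMT2, HRK (0.957) and SLC7A11 (0.955), the light chain of the cystine transporter. Most like PSAT1 were GPT2 (0.965), a mitochondrial alanine transaminase, FYN (0.964), a tyrosine kinase, and the glycine transporter SLC6A9 (0.964). Most like PSPH were MTHFD2, the tyrosyl-tRNA synthetase YARS (0.969) and SLC7A11 (0.966), most like SHMT2 were PHGDH, SLC7A11 (0.943) and FYN (0.918), and most like MTHFD2 were PSPH, SLC7A11 (0.956) and PSAT1 (0.955). The nearest neighbours of the other 3 were less close, at 0.832 for SHMT1 (NOP58, a component of box C/D small nucleolar ribonucleoproteins, then CITED2 at 0.780 and METTL23 at 0.773), 0.841 for MTHFD1 (STX12, then SAMHD1 at 0.834 and MRPL58 at 0.812) and 0.867 for MTHFD1L (MSRB2, then PXK at 0.854 and PLRG1 at 0.838).

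**Figure D4:**
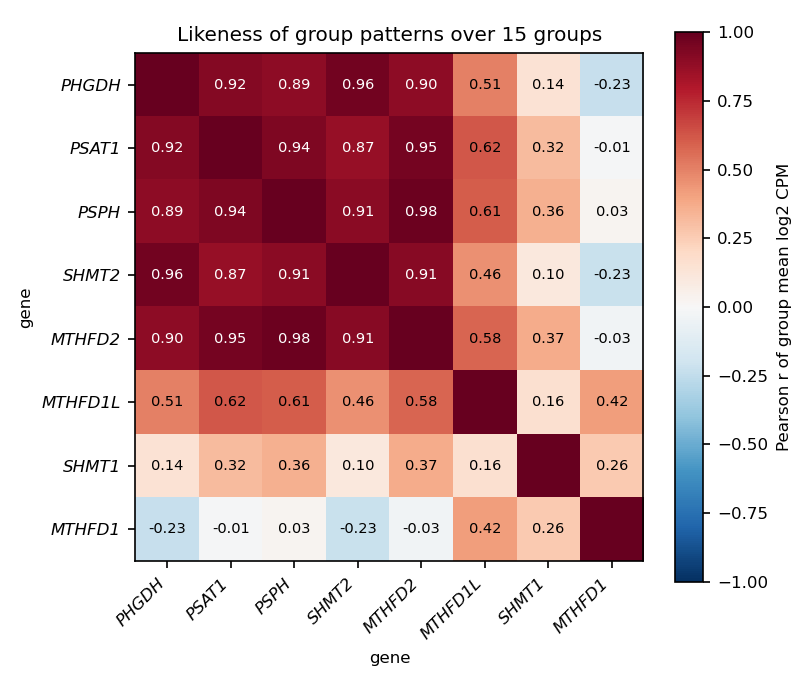
Pearson's r between each pair of the 8 genes over 15 group means of log2 CPM, as a description without a test. The block of PHGDH, PSAT1, PSPH, SHMT2 and MTHFD2 holds values from 0.874 to 0.979, and the rows of MTHFD1L, SHMT1 and MTHFD1 hold none above 0.622. The block was set apart by calls in these same groups.

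Genes around the pathway were followed as lists, in the main fit only, which includes RNF25 KO azaC replicate 2. Of 10 measured serine and glycine transporters, 3 rose with HF in RNF25 KO, 1 in GCN2 KO and 4 in AAVS1, none fell, and with azaC 4 rose in RNF25 KO, 2 in eS31 K113R and 1 in ZNF598 KO. SLC38A2, a transporter of small neutral amino acids, rose with HF by 1.83 ± 0.18 in RNF25 KO and 1.80 ± 0.18 in AAVS1, and had −0.48 ± 0.18 in GCN2 KO (adjusted p = 0.277). Its HF response was smaller in GCN2 KO than in AAVS1 (−2.28 ± 0.26, adjusted p = 8.95e-08). With azaC it rose by 1.56 ± 0.18 in RNF25 KO, 1.33 ± 0.18 in eS31 K113R and 1.00 ± 0.18 in ZNF598 KO, and its azaC response was smaller in the libraries labelled DKO than in RNF25 KO (−1.50 ± 0.26, adjusted p = 0.000939). SLC1A4, a transporter of alanine, serine and cysteine, rose with HF in all 3 lines (1.97 in RNF25 KO, 1.28 in GCN2 KO and 2.12 in AAVS1) and with azaC in RNF25 KO (1.54) and eS31 K113R (1.52). SLC6A9, the glycine transporter, rose with HF in RNF25 KO (2.14) and AAVS1 (2.52) and with azaC in RNF25 KO (1.74), and SLC1A5 rose with HF in AAVS1 (0.88) and azaC in RNF25 KO (1.21). SLC1A4, SLC38A2 and SLC6A9 were lower with azaC than with HF in AAVS1 (−1.92, −1.07 and −2.05).

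No gene of the folate cycle beyond the 8 enzymes passed. Of 16 listed genes 10 were measured, among them the paralog MTHFD2L, FPGS and the folate carrier SLC19A1, and 0 passed in any of the 24 comparisons, in edgeR. Their median log2 fold change with HF was −0.0042 in RNF25 KO, −0.22 in GCN2 KO and 0.21 in AAVS1. Of the 7 measured methionine cycle and transsulfuration genes, CTH, which releases cysteine from cystathionine, rose with HF in RNF25 KO (3.14 ± 0.32, adjusted p = 1.48e-09) and AAVS1 (2.28 ± 0.30, adjusted p = 6.33e-07). It also rose with azaC in RNF25 KO (2.13) and eS31 K113R (1.79), and was lower with azaC than with HF in AAVS1 (−1.34). MAT2A, which makes S-adenosylmethionine, fell with HF in RNF25 KO (−0.74 ± 0.18, adjusted p = 0.0167) and was higher with azaC than with HF there (0.73). Of 10 measured genes of other serine use, 1, the seryl-tRNA synthetase gene SARS1, rose with HF in RNF25 KO (0.95 ± 0.18) and AAVS1 (1.26 ± 0.18), was higher in untreated eS31 K113R than in AAVS1 (0.65) and lower with azaC than with HF in AAVS1 (−0.71).

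Of 12 measured genes of purine and thymidylate synthesis, which use the one-carbon units, 0 passed with HF or azaC against untreated in any genotype, in edgeR. IMPDH1 was higher with azaC than with HF in RNF25 KO (0.95), and PRPS1 and PRPS2, which make the ribose donor of purines, were lower in untreated eS31 K113R than in AAVS1 (−1.09 ± 0.19 and −0.90 ± 0.22). In that same comparison PGK1, which makes 3-phosphoglycerate in glycolysis, was lower (−1.11 ± 0.18, adjusted p = 3.36e-05), the only one of 5 lower glycolysis genes to pass, and GATM, which uses glycine for creatine, was the only one of 6 measured glycine genes to pass and was higher (2.08 ± 0.54). Of 9 measured stress response genes, 6 rose with HF in RNF25 KO, 2 in GCN2 KO and 7 in AAVS1, and with azaC 7 rose in RNF25 KO, 7 in eS31 K113R, 4 in ZNF598 KO, 0 in GCN2 KO, 0 in the DKO and 5 in AAVS1. SESN2, an inhibitor of mTORC1 signalling, rose with HF by 2.89 in RNF25 KO, 0.80 in GCN2 KO and 3.35 in AAVS1. PCK2, the mitochondrial phosphoenolpyruvate carboxykinase, rose with HF by 2.25 in RNF25 KO and 3.05 in AAVS1, and TRIB3, a pseudokinase, by 3.01 and 3.51 in the same lines. DDIT3, the transcription factor CHOP, rose with HF by 2.94 in RNF25 KO, 1.62 in GCN2 KO and 3.38 in AAVS1. With azaC, SESN2 rose by 2.79 in RNF25 KO and 3.04 in eS31 K113R, DDIT3 by 3.10 and 3.13, PCK2 by 1.98 and 1.89 and CEBPB by 2.21 and 2.91 in the same lines. CHAC1, a glutathione-degrading enzyme, rose with azaC in RNF25 KO, eS31 K113R, ZNF598 KO and AAVS1. SESN2, DDIT3 and CEBPB also rose with azaC in ZNF598 KO and AAVS1, and PCK2 in AAVS1. The HF response was smaller in GCN2 KO than in AAVS1 for 5 of the 9, SESN2 (−2.56), PCK2 (−2.86), TRIB3 (−3.35), CEBPB (−2.63) and CHAC1, the last with few counts in untreated libraries and so given without a value. For SESN2, DDIT3, PCK2, CHAC1 and CEBPB the azaC response was smaller in the libraries labelled DKO than in RNF25 KO. With azaC against HF, SESN2, TRIB3, PCK2, DDIT3 and CEBPB were lower in AAVS1 (−2.45 to −1.40 over these 5) and TRIB3 was lower in RNF25 KO (−1.11). The mRNA of ATF4 itself had 0.57 ± 0.19 in RNF25 KO, 0.02 ± 0.19 in GCN2 KO and 0.63 ± 0.19 in AAVS1 with HF and passed in none of them (adjusted p = 0.144, 0.99 and 0.0978). With azaC it rose in RNF25 KO (0.90 ± 0.19, adjusted p = 0.0103). Whether this call and those of the other list genes hold without single libraries was not tested. In mammalian cells ATF4 is known to be controlled largely at translation, which mRNA levels do not measure. The lists were drawn up with results of these data known, so their counts are no independent evidence of a direction.

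Near-identical copies took few counts. Of 15 pseudogenes and paralogs of the 8 genes in the table, 11 had 0 counts in all libraries. MTHFD2P1 had 80 counts over the 45 libraries, PSAT1P1 and PSAT1P3 had 1 count each, and MTHFD2L, the mitochondrial paralog of MTHFD2, had 1204, against 16945 for MTHFD2. Of the annotated exon length of MTHFD2, 33.2% lies under exons of the opposite strand (SLC4A5 and a noncoding gene), and for MTHFD1, SHMT2 and SHMT1 the shares were 11%, 9.51% and 2.69%. Whether the counting used strand is not given in the sources used here, so reads from such stretches cannot be assigned with certainty. The exons of PHGDH, PSAT1, PSPH and MTHFD1L share no bases with exons of the other strand.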

How the data were processed

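Per the labels' protocols, RNA was extracted with Maxwell RSC chemistry and the CORALL mRNA-Seq V2 kit turned it into libraries. The authors deposited 1 table of raw read counts per gene for all 45 libraries, with no normalization. STAR 2.7.10b, HTSeq 0.9.1 and GRCh38 are named in the submitters' processing notes, whereas whether counting used strand or molecular identifiers, and with which annotation release, is not given in the sources used here. Coordinates and exon lengths come from a GENCODE v29 annotation of GRCh38, matched by gene ID. Libraries were grouped by their labels, and 2 untreated eS31 K113R libraries by the column names. All columns of the table were used (0 left out).

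Entries with a gene ID and no symbol (2862 of them, with 0.0286% of counts) were kept. Genes were kept by filterByExpr of edgeR with a minimum count of 10, library sizes were scaled by TMM, and 1 quasi-likelihood model was fitted to the 11078 genes, with a mean for each of 15 groups and 30 degrees of freedom left for the spread (R 4.3.3, edgeR 4.0.16, limma 3.58.1). The 24 comparisons are contrasts of that model, some of them differences of responses, with p-values adjusted by the Benjamini-Hochberg method over all tested genes of a comparison and a threshold of 0.05. Counts of 1135498 to 2478875 per library limit the precision of single genes, with a common biological coefficient of variation of 22.1% between replicates.

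The alternatives were RLE size factors, no filter on low counts, DESeq2 1.42.0, limma-voom, a fit to the compared groups alone, the replicate number as a block, each library left out in turn, AAVS1 untreated replicate 2 and RNF25 KO azaC replicate 2 left out together (libraries that stood apart in an earlier analysis of these data), and untreated eS31 K113R replicate 1 as the only one of its group. The replicate numbers come from the labels. They were taken to pair the samples of a comparison where every pair of same-numbered libraries had a correlation of deviations from the group means over 0.1, which held in 11 of 24 comparisons. Over all groups, 229 of 315 pairs of same-numbered libraries from different groups had a correlation over 0.1. For pairs with different numbers it was 23 of 630. The main model does not use the replicate number.

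All 8 genes were described in every group. From the lists, genes past the threshold in a comparison with one of the 8 were named, at most 4 for each list and comparison by adjusted p, as were the 3 genes most correlated with each of the 8 over group means. ATF4 and some stress genes in other comparisons were named after their values were seen. The genes and lists were chosen with earlier results of these data known.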

Additional observations from a re-analysis of the deposited data

Results flagged for a closer look

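The HF responses of GCN2 KO and AAVS1 cells differed for 4 of the 8 mRNAs in a test of the difference itself (edgeR's quasi-likelihood test with Benjamini-Hochberg adjustment over all tested genes, 3 libraries a group). Of all tested genes 0.334% passed. The log2 fold change with HF in GCN2 KO minus that in AAVS1 was −1.65 for PSAT1 (adjusted p = 0.000218), −1.46 for SHMT2 (adjusted p = 0.00195), −0.97 for MTHFD2 (adjusted p = 0.014) and −0.96 for PHGDH (adjusted p = 0.0189). In all 4 the 3 HF-treated libraries overlapped the untreated ones in GCN2 KO and did not overlap them in AAVS1. These are the libraries of the test that picked the 4, so the overlap describes the calls and adds no support. The calls of PHGDH, MTHFD2 and SHMT2 were lost in the fit to the compared groups alone. Without the filter on low counts, and with some single libraries left out, those of PHGDH and MTHFD2 were lost too.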

How the results depend on the processing

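No alternative reversed the sign of any of the 27 calls, and 14 of them held in every alternative, among them all 10 HF calls in RNF25 KO and AAVS1. Of the 8 mRNAs, the number past the threshold moved as follows. For azaC in RNF25 KO it was 3, with 4 in DESeq2, 2 without the filter on low counts, 2 without AAVS1 untreated replicate 2 and RNF25 KO azaC replicate 2, 0 in the fit to the compared groups alone and 0 to 2 with 1 library left out. For azaC in eS31 K113R it was 3, with 0 when untreated replicate 1 was the only untreated library, 4 in limma-voom, 1 without the filter, 1 in the compared groups alone and 0 to 3 with 1 library left out. For the HF response of GCN2 KO minus AAVS1 it was 4, with 2 without the filter, 1 in the compared groups alone and 2 to 5 with 1 library left out. For azaC against HF in RNF25 KO it was 1, with 2 in DESeq2 and in limma-voom, 0 in the compared groups alone, 0 without AAVS1 untreated replicate 2 and RNF25 KO azaC replicate 2, and 0 to 2 with 1 library left out. For azaC against HF in AAVS1 it was 4, with 5 in DESeq2, in limma-voom and without those 2 libraries, 3 without the filter, 3 in the compared groups alone and 3 with any 1 library left out. For untreated eS31 K113R it was 2, with 0 when replicate 1 was its only library, 1 without AAVS1 untreated replicate 2 and RNF25 KO azaC replicate 2, 1 without the filter, 0 in the compared groups alone and 1 to 2 with 1 library left out. For untreated GCN2 KO it was 0, with 1 in DESeq2. With 1 library left out it reached 0 to 1 for untreated GCN2 KO, untreated ZNF598 KO and azaC in AAVS1. The fit to the compared groups alone had fewer libraries to estimate the spread. For the other settings the cause was not tested.

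With the replicate number as a block, untreated GCN2 KO had 1 of 8 and azaC against HF in RNF25 KO had 2 of 8 past the threshold. In comparisons whose numbers did not pair the libraries, the block added PSPH for azaC in RNF25 KO (0.95, adjusted p = 0.00292), PSPH for the HF response of GCN2 KO minus AAVS1 (−1.25, adjusted p = 0.00899) and PSAT1 for azaC against HF in RNF25 KO (−0.73, adjusted p = 0.00772), and apart from these and the 3 calls given with the comparisons it changed no call. Over all tested genes the number past the threshold moved by over 1.5 times in 14 of 24 comparisons with the block, 9 without the filter and 3 in DESeq2, always to more genes. It moved to fewer in 12 of 24 with the compared groups alone and in 3 of 3 with 1 untreated eS31 K113R library. After HF in AAVS1 it was 171, with 67 in the compared groups alone. In all 24 comparisons the SE was larger for PSPH than for SHMT1, the gene with the fewest counts.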
